A study of Mus musculus with 12 samples.

Results

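Chaperone and unfolded protein response genes were examined in mouse cerebellum, as 41 genes picked by symbol from the 18394 genes of the deposited count table. They comprised 11 cytosolic heat shock genes, 3 mitochondrial chaperones, 15 chaperones and folding enzymes of the endoplasmic reticulum (ER), 4 genes of ER-associated degradation and 8 sensors and factors of the unfolded protein response (UPR). All 41 were in the table, and all 41 passed the filter on low counts. Messenger RNA had been sequenced from the cerebella of 6 conditional knockout mice (cKO; genotype deltaalpha6-Cre Crfr1 knock-out) and 6 wild-type mice (WT), with no treatment, age, sex or strain labelled. The driver takes its name from Gabra6, a GABA-A receptor subunit gene typical of cerebellar granule cells, and no group with the driver alone is labelled. Whole cerebellum was used, so fewer cells of a type and less RNA per cell cannot be told apart in any value below. The labels mark the libraries as separate cerebella and say nothing of litters, so p-values measure the spread between these 12 libraries.

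Chaperones help proteins fold and keep unfolded chains from aggregating. In the cytosol, Hsp70 and Hsp90 proteins work with J-domain and nucleotide exchange co-chaperones, and the transcription factor HSF1 raises their genes under proteotoxic stress. In the ER, the Hsp70 protein BiP, made by Hspa5, folds secreted and membrane proteins and restrains the sensors IRE1, PERK and ATF6. When unfolded proteins accumulate, IRE1 splices Xbp1 mRNA, ATF6 is cleaved into a transcription factor, and PERK phosphorylates eIF2α, which favours translation of ATF4. XBP1 and ATF6 raise ER chaperones and degradation factors, and ATF4 raises genes of amino acid supply and stress such as Trib3 and Chac1. In the cerebellum, Purkinje cells are known to degenerate in mice that lack Sil1, an exchange factor of BiP.

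The libraries held 32316716 to 58710874 counts in cKO and 23803779 to 62104185 counts in WT. Crhr1, the symbol for Crfr1 in the table, measured 88.7 to 104.8 CPM (counts scaled to a common library total) in cKO and 91.6 to 101.6 CPM in WT (log2 fold change of cKO over WT 0.02, SE 0.04, edgeR quasi-likelihood test with Benjamini-Hochberg adjustment, adjusted p = 0.889). A count over the whole gene includes undeleted exons and cells that the driver does not reach, so it does not check the deletion. Gabra6, the gene the driver is named after, averaged 623 ± 30.0 CPM in cKO and 813 ± 56.1 CPM in WT (SD, n = 6 each; log2 fold change −0.38 with an SE of 0.04, edgeR adjusted p = 1.45e-05). Choroid plexus markers differed most between libraries, with a summed level of 378 to 1856 CPM in cKO and 490.2 to 1204 CPM in WT. None of the marker genes of the 13 cell type and tissue lists that were in the table was at 0 in all libraries.

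Promoters were searched for known control elements of the heat shock and ER stress responses. RefSeq promoters (GRCm38.p6, 250 bases before to 50 bases after each start) were matched for 32 of the 41 genes and searched on both strands. The ER stress element (ERSE), written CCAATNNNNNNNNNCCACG and bound by ATF6 and XBP1 with NF-Y, was found in 8 of the 32, or 25.0%, and in 0.137% of all 27025 genes with a promoter in the table. Of the 12 ER chaperones with a promoter, 7 held it. The 8 genes' elements, shown because more members share this element than any other searched, read as follows, with the fixed letters in capitals; the second element of Hsp90b1 lies on the strand opposite to the first.
Hspa5, chr2:34772025-34772043 (+): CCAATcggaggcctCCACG
Hsp90b1, chr10:86705533-86705551 (+): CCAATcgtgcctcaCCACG
Hsp90b1, chr10:86705638-86705656 (-): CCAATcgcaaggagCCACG
Calr, chr8:84847075-84847093 (+): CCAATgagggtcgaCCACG
Canx, chr11:50325800-50325818 (-): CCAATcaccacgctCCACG
Dnajc3, chr14:118937827-118937845 (+): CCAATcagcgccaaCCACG
Pdia6, chr12:17266491-17266509 (+): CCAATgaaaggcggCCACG
Creld2, chr15:88819520-88819538 (-): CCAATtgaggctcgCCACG
Syvn1, chr19:6046532-6046550 (+): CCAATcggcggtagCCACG
The element of Hspa5 starts 65 bases before the RefSeq start used for the window; the GENCODE gene, whose coordinates are given further on, begins upstream of it and so contains it. It stands in capitals within the 300-base promoter (chr2:34771840-34772139, plus strand), shown as the promoter of the gene against which the other members are compared further on.
Hspa5: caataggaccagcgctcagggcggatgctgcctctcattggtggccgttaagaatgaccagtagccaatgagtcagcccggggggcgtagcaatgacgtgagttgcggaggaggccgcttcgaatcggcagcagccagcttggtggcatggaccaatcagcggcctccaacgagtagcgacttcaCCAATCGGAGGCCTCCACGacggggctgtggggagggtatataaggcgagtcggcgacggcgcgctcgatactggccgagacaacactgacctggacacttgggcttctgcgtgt

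The heat shock element, written GAANNTTCNNGAA, was found in 3 of the 32 genes, or 9.38%, and in 0.662% of all genes with a promoter. Hsph1 held 1, GAActTTCcaGAA, at chr5:149636288-149636300. The other genes, Hspe1 and Hspd1, encode the mitochondrial chaperonins Hsp10 and Hsp60 and lie head to head, so that a single stretch serves both. It is shown as read for Hspe1 (chr1:55087898-55088197, plus strand), with 2 overlapping elements on opposite strands in capitals.
Hspe1: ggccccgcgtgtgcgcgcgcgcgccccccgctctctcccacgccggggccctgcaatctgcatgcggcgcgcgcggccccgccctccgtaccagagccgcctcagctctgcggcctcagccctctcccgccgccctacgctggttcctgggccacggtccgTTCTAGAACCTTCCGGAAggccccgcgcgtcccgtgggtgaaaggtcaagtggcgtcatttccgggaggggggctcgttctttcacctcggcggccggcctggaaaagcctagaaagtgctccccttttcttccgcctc
The C/EBP-ATF response element, written TGATGNAA and bound by ATF4, was found in Chac1, Trib3 and Herpud1, again 3 of 32, against 4.51% of all genes. It reads TGATGcAA in Chac1 and in Herpud1, and TGATGtAA in Trib3, where it lies 14 bases past the start. The Chac1 promoter (chr2:119350992-119351291, plus strand) is shown because this gene had the widest spread among the cKO libraries relative to its level. Its element, in capitals, lies on the opposite strand.
Chac1: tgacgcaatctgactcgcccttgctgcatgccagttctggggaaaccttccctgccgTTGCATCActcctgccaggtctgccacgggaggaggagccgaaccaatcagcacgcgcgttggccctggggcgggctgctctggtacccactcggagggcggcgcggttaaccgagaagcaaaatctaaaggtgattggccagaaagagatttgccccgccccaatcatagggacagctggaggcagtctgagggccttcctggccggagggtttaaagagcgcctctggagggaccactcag
The unfolded protein response element, written TGACGTGG, was found in 0 of the 32 genes and in 0.714% of all genes. A match describes letters in these windows and not a bound site.

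Levels differed widely within the family. Per kilobase of annotated exon (union over isoforms), the cytosolic genes Hsp90ab1, Hspa8 and Hsp90aa1 were highest, with mean levels of 395, 317 and 218 CPM per kb in cKO and 392.4, 296 and 219 CPM per kb in WT. Calr and Hsp90b1, a lectin chaperone and the Hsp90 of the ER, followed with 108 and 101 CPM per kb in cKO and 103 and 98.1 CPM per kb in WT. Hspa5 ranked 10th of the 40 genes with a length, at 61.0 CPM per kb in cKO and 58.3 in WT. The lowest were Trib3, with 0.693 CPM per kb in cKO and 0.584 in WT, and Hspa1b, the stress-inducible Hsp70, with 1.08 CPM per kb in cKO and 1.101 in WT. Its near-identical copy Hspa1a stood at 1.27 CPM per kb in cKO and 1.30 in WT, and reads could have been split between the copies.

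Of the 41 genes, only Hspa8 passed the test between genotypes, higher in cKO, and 0 were lower. Over all 15467 genes tested, 409 passed, which is 2.64%, with 1.27% higher and 1.38% lower in cKO. A count of 1 in 41 is near that background. An unadjusted p under 0.05 was found for 7 members, against 14.2% of all genes. The log2 fold changes of the members ran between −0.13 and 0.24, 24 were positive and 17 negative, and their median was 0.03, beside a median of −0.0003 over all genes tested. The median standard error of the members was 0.03.

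**Figure D1:**
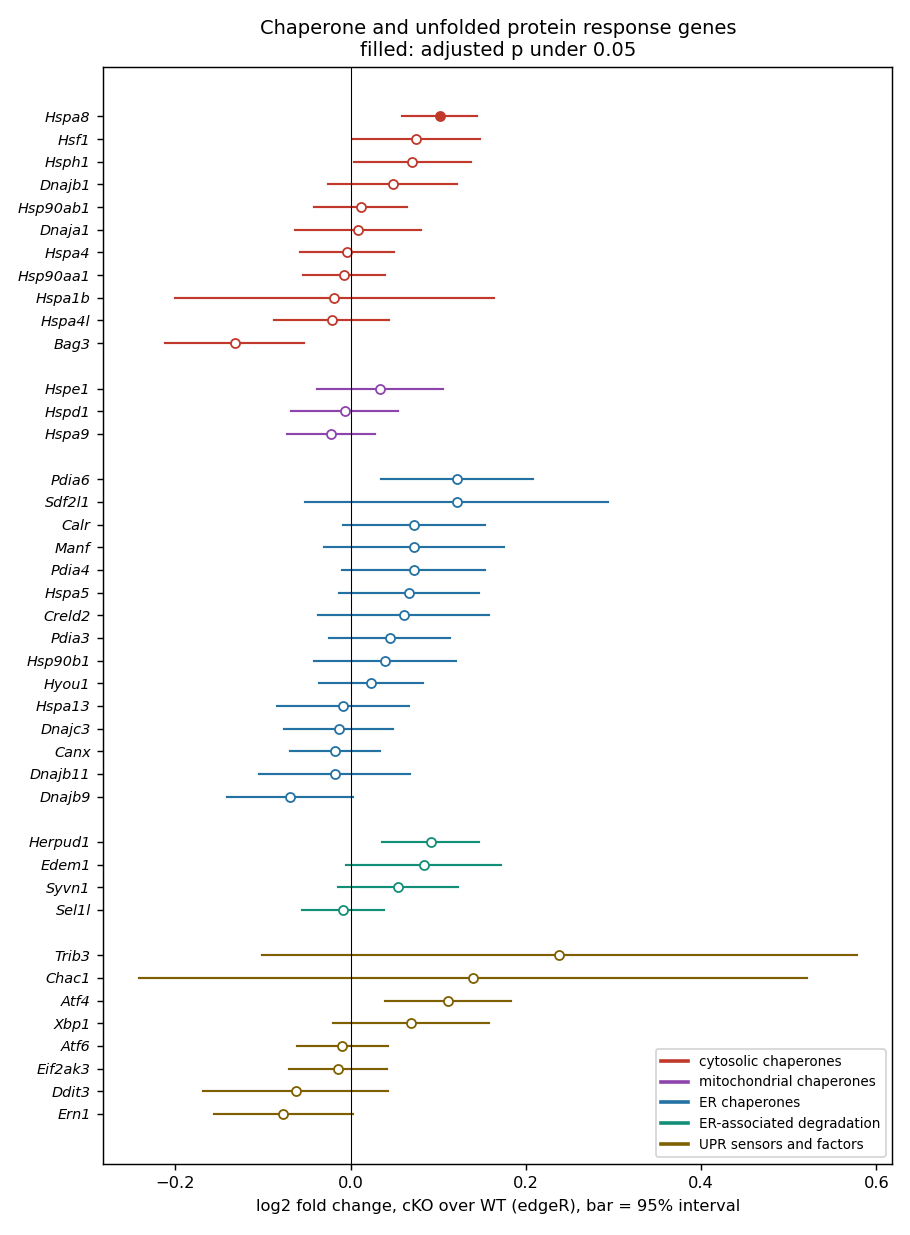
Log2 fold change of each of the 41 genes, cKO over WT (x axis), with its 95% interval as a bar, grouped by branch. The filled point marks an adjusted p under 0.05, reached by Hspa8 alone at 0.10; Trib3 and Chac1 have the widest bars.

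In the cytosolic branch, Hspa8 rose in cKO cerebella by 7.29%. Hspa8 encodes Hsc70, the constitutive Hsp70 that also uncoats clathrin from synaptic vesicles. Its lowest, median and highest levels were 1334, 1361 and 1394 CPM in cKO and 1227, 1282 and 1304 CPM in WT. All 6 cKO libraries lay above all 6 WT libraries. It was the only member with no overlap of the groups, and 2.09% of all genes tested had none. Hspa8 (chromosome 9, 40800984 to 40810087, GENCODE M21, mm10) averaged 1365 ± 21.9 CPM in cKO and 1273 ± 28.5 CPM in WT (SD, n = 6 each; log2 fold change 0.10, SE 0.02, 95% interval 0.06 to 0.14, edgeR adjusted p = 0.00814). In the authors' deposited table its log2 fold change was 0.10 with an adjusted p of 1.83e-05. Small nucleolar RNA genes Snord14c, Snord14d and Snord14e lie within it on the same strand, and counts cannot be assigned between them here.

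Microglia markers were also higher in cKO as a list: 13 of 13 had positive log2 fold changes, with 2 called higher and 0 lower. Their summed level overlapped between the groups, at 214 to 256 CPM in cKO and 202 to 226 CPM in WT. With their mean level as a covariate, the log2 fold change of Hspa8 was 0.09 (SE 0.03, edgeR adjusted p = 0.111), beside 0.10 (SE 0.02) without the covariate. Granule cell markers were called in both directions, 3 higher and 6 lower of 15, with a sum of 8111 to 8778 CPM in cKO and 8471 to 8771 CPM in WT. That list includes Gabra6, the gene the driver is named after, which is among the 6 lower, and the sum was not taken without it. Of 13 inhibitory interneuron markers 12 had negative log2 fold changes, 8 an unadjusted p under 0.05 and 1 was called lower, and they summed to 2101 to 2295 CPM in cKO and 2278 to 2370.5 CPM in WT. Of 15 genes that respond to handling, neuronal activity or temperature, 2 were called higher (Arc and Npas4, with Npas4 the largest at a log2 fold change of 0.79) and 1 lower (the cold-inducible Cirbp, −0.12), named here to complete the count, and their sum was 659 to 736 CPM in cKO and 634 to 723 CPM in WT. Of 7 unipolar brush and nuclear neuron markers 1 was called lower, with a sum of 209 to 244 CPM in cKO and 221 to 242 CPM in WT. Of 18 tested markers of neighbouring brain tissue 1 was called higher and 1 lower. No marker of the remaining lists was called. The part of the granule cell, unipolar brush and nuclear neuron, interneuron and handling lists in the Hspa8 result was not tested.

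A tissue score was also taken as the mean log2 CPM of a list's markers, which weights each gene alike, unlike the sums above. Without the 4 libraries highest in this score for neighbouring brain tissue (cKO replicates 1, 2 and 3 and WT replicate 5, which differ from the 4 with the highest sum) Hspa8 did not pass, at 0.10 (SE 0.03, edgeR adjusted p = 0.166). It did not pass either without the 4 highest in choroid plexus markers (cKO replicate 6 and WT replicates 3, 4 and 5), at 0.09 (SE 0.03, edgeR adjusted p = 0.213). These fits were chosen after the data were seen and rest on 8 libraries. With either score as a covariate in all 12 libraries the gene stayed past the threshold (0.11, SE 0.02, edgeR adjusted p = 0.0143 with neighbouring tissue, and 0.10, SE 0.02, edgeR adjusted p = 0.0259 with choroid plexus).

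Bag3, a nucleotide exchange factor that hands Hsp70 clients to autophagy, had the most negative value of the family. Its lowest, median and highest levels were 23.0, 23.6 and 25.4 CPM in cKO and 24.5, 26.3 and 27.8 CPM in WT. Of the cKO libraries 5 lay below every WT library, and the groups overlapped in the sixth. It averaged 23.9 ± 0.877 CPM in cKO and 26.3 ± 1.28 CPM in WT (SD, n = 6 each; log2 fold change −0.13, SE 0.04, 95% interval −0.21 to −0.05), and missed the threshold (edgeR adjusted p = 0.0726). Without cKO replicate 4 or WT replicate 5 it was called (−0.15, edgeR adjusted p = 0.0457 and 0.0411).

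**Figure D2:**
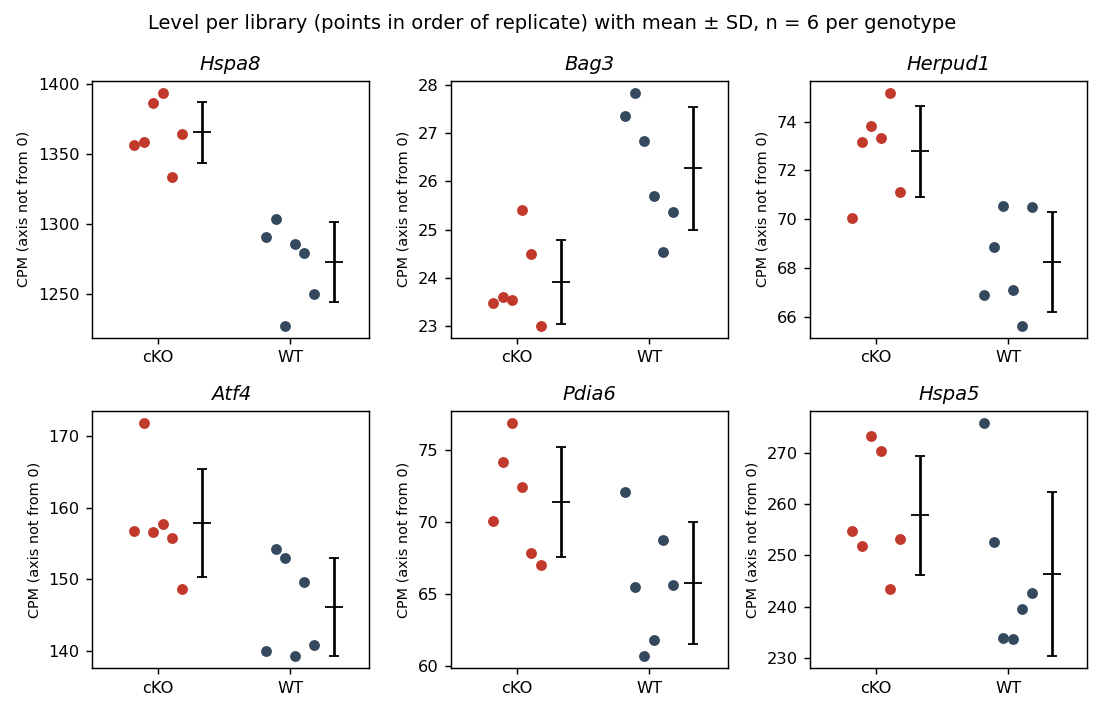
Level of Hspa8, Bag3, Herpud1, Atf4, Pdia6 and Hspa5 in each library, in CPM on a linear axis that does not start at 0. Points are the 6 cKO libraries (left) and the 6 WT libraries (right), and bars are the mean and SD. Hspa8 alone shows no overlap, with cKO libraries at 1334 to 1394 CPM and WT libraries at 1227 to 1304 CPM, while for Hspa5 the highest of the 12 points is a WT library at 276 CPM.

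Hsf1, the transcription factor of the heat shock response, ranged over 53.0, 57.5 and 61.4 CPM in cKO and 51.5, 54.2 and 56.7 CPM in WT (lowest, median, highest). Of the cKO libraries 4 lay above every WT library, but the value did not pass (log2 fold change 0.08 with an SE of 0.03, edgeR adjusted p = 0.333). Hsph1, an Hsp110 exchange factor, likewise had 4 cKO libraries above all WT libraries, with means of 155 ± 7.41 CPM in cKO and 147.96 ± 5.28 CPM in WT (SD, n = 6 each; log2 fold change 0.07 with an SE of 0.03, edgeR adjusted p = 0.320). The cytosolic Hsp90 genes did not separate the genotypes. Hsp90aa1, the inducible form, had 811, 856 and 880.2 CPM in cKO and 833, 864 and 871 CPM in WT (lowest, median, highest), with a log2 fold change of −0.01 (SE 0.02, 95% interval −0.05 to 0.04, edgeR adjusted p = 0.924). Hsp90ab1, the constitutive form, had 1135, 1197 and 1221 CPM in cKO and 1129.8, 1172 and 1221 CPM in WT (log2 fold change 0.01, SE 0.03, 95% interval −0.04 to 0.06, edgeR adjusted p = 0.896).

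The remaining cytosolic members, namely the Hsp110 relatives Hspa4 and Hspa4l, the inducible Hspa1b and the J-domain genes Dnaja1 and Dnajb1, had log2 fold changes between −0.02 and 0.05 with overlapping groups. Dnajb1, an inducible partner of Hsp70, was picked out once its values were known. Its cKO libraries lay close together, between 36.5 and 37.5 CPM (SD 0.373), and its WT libraries between 33.2 and 39.0 CPM (SD 2.20). As a branch, the 11 cytosolic genes had 6 positive and 5 negative values and a median log2 fold change of 0.01.

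The 3 mitochondrial chaperones lay at or near 0. Hspd1 had 190, 200 and 216 CPM in cKO and 194, 203 and 210 CPM in WT (lowest, median, highest), with a log2 fold change of −0.01 (SE 0.03, 95% interval −0.07 to 0.05, edgeR adjusted p = 0.953). Its head-to-head partner Hspe1 had 38.9, 42.4 and 44.8 CPM in cKO and 39.7, 40.7 and 43.3 CPM in WT, with a log2 fold change of 0.03 (SE 0.03, edgeR adjusted p = 0.729). Hspa9, the mitochondrial Hsp70 mortalin, had 274, 288 and 303 CPM in cKO and 288, 293 and 298 CPM in WT, with a log2 fold change of −0.02 (SE 0.02, edgeR adjusted p = 0.738). For all 3 genes cKO replicate 5 was the lowest library. Annotated pseudogenes carry the names of Hspe1 (6 of them), Hspd1 (5) and Hspa9 (1), and reads could have been split between each gene and its pseudogenes. Among the other members Calr and Dnaja1 have 1 each. Hspe1 and Hspd1 also overlap each other on opposite strands.

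In the ER none of the 27 chaperone, degradation and UPR genes was called by edgeR, while 3 had an unadjusted p under 0.05 and a DESeq2 fit called 2, Herpud1 and Atf4. That fit called 4 of the 41 members, with Hspa8 and Bag3 as the others, and 3.99% of the genes it tested. Their median log2 fold change was 0.05, with 17 positive and 10 negative values. Hspa5 (chromosome 2, 34771970 to 34777547), the BiP gene whose promoter is given above, had lowest, median and highest levels of 243, 254 and 273 CPM in cKO and 234, 241 and 276 CPM in WT. All 6 cKO libraries lay above the WT median, but WT replicate 1 was the highest of all 12. It averaged 258 ± 11.5 CPM in cKO and 246 ± 16.0 CPM in WT (SD, n = 6 each; log2 fold change 0.07, SE 0.04, 95% interval −0.01 to 0.15, edgeR adjusted p = 0.456). Without WT replicate 1 the log2 fold change of Hspa5 was 0.10 (SE 0.03, edgeR adjusted p = 0.143), and in the fit without the libraries highest in choroid plexus markers it was 0.01 (SE 0.05, edgeR adjusted p = 0.978). Hsp90b1 had 365, 411 and 431 CPM in cKO and 373, 392.3 and 433 CPM in WT, with a log2 fold change of 0.04 (SE 0.04, edgeR adjusted p = 0.717).

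Among the folding enzymes, Pdia6, a protein disulfide isomerase, had the smallest p. Its levels were 67.0, 71.2 and 76.8 CPM in cKO and 60.7, 65.6 and 72.0 CPM in WT (lowest, median, highest). Of the cKO libraries 3 lay above all WT libraries, and the test was not passed (log2 fold change 0.12, SE 0.04, 95% interval 0.04 to 0.21, edgeR adjusted p = 0.151). Its relatives Pdia3 and Pdia4 had log2 fold changes of 0.04 (SE 0.03) and 0.07 (SE 0.04), and the lectin chaperones Calr and Canx of 0.07 (SE 0.04) and −0.02 (SE 0.02). Dnajb9, a J-domain partner of BiP that is also a target of XBP1, had 43.1, 45.4 and 48.3 CPM in cKO and 45.1, 48.2 and 50.005 CPM in WT, with 3 cKO libraries below all WT libraries (log2 fold change −0.07 with an SE of 0.03, edgeR adjusted p = 0.371). The other J-domain members, Dnajb11 and Dnajc3, had values of −0.02 (SE 0.04) and −0.01 (SE 0.03). Sdf2l1, Manf, Creld2 and Hyou1, which are raised in ER stress in many cell types, had log2 fold changes of 0.12 (SE 0.08), 0.07 (SE 0.05), 0.06 (SE 0.05) and 0.02 (SE 0.03). Hspa13, an Hsp70 relative of microsomes, had −0.01 (SE 0.04), and none of these passed the test.

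Of the 4 genes of ER-associated degradation, Herpud1 came nearest to the threshold. It encodes a membrane protein that organises the ubiquitin ligase complex. Its levels were 70.1, 73.3 and 75.2 CPM in cKO and 65.6, 68.0 and 70.5 CPM in WT (lowest, median, highest). Of the cKO libraries 5 lay above all WT libraries. Herpud1 (chromosome 8, 94386438 to 94395377) averaged 72.8 ± 1.87 CPM in cKO and 68.2 ± 2.03 CPM in WT (SD, n = 6 each; log2 fold change 0.09, SE 0.03, 95% interval 0.04 to 0.15, edgeR adjusted p = 0.0764). In the authors' deposited table it was called, with a log2 fold change of 0.08 and an adjusted p of 0.0383; that table calls 563 of 15180 genes, or 3.71%, and among the members Hspa8 and Herpud1. The gene Gm15890 overlaps Herpud1 on the opposite strand, and the strand setting of the counting is not given in the sources used here. Other members, such as Pdia3, Pdia6 and Manf, also overlap genes on the opposite strand. Edem1, which directs misfolded glycoproteins to degradation, had 24.3, 25.5 and 27.9 CPM in cKO and 22.5, 24.8 and 25.9 CPM in WT (log2 fold change 0.08 with an SE of 0.04, edgeR adjusted p = 0.386). The ubiquitin ligase gene Syvn1 and its partner Sel1l had log2 fold changes of 0.05 (SE 0.03) and −0.01 (SE 0.02) and did not pass.

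None of the 3 stress sensors of the ER passed the test. Ern1, which encodes IRE1, had 14.97, 15.5 and 16.2 CPM in cKO and 15.6, 16.4 and 16.9 CPM in WT (lowest, median, highest). All 6 cKO libraries lay below the WT median, with a log2 fold change of −0.08 (SE 0.04, 95% interval −0.16 to 0.00, edgeR adjusted p = 0.368). Atf6 had 85.1, 86.9 and 91.1 CPM in cKO and 86.7, 87.5 and 91.2 CPM in WT (log2 fold change −0.01 with an SE of 0.02, edgeR adjusted p = 0.912). Eif2ak3, which encodes PERK, had 52.0, 54.5 and 56.3 CPM in cKO and 53.4, 54.9 and 57.2 CPM in WT (log2 fold change −0.01 with an SE of 0.03, edgeR adjusted p = 0.873).

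Downstream of the sensors, Xbp1 had 92.7, 95.8 and 107 CPM in cKO and 86.1, 92.7 and 101 CPM in WT (log2 fold change 0.07 with an SE of 0.04, edgeR adjusted p = 0.495). Counts per gene do not separate its spliced form. Atf4 had 149, 157 and 172 CPM in cKO and 139, 145 and 154 CPM in WT, with 5 cKO libraries above all WT libraries. It averaged 158 ± 7.59 CPM in cKO and 146 ± 6.89 CPM in WT (SD, n = 6 each; log2 fold change 0.11, SE 0.03, 95% interval 0.04 to 0.18, edgeR adjusted p = 0.108), and was called without cKO replicate 6 (0.13, edgeR adjusted p = 0.0498). Ddit3, the factor CHOP that acts in prolonged stress, had 13.4, 14.7 and 15.4 CPM in cKO and 13.4, 15.5 and 16.6 CPM in WT. All 6 cKO libraries lay below the WT median (log2 fold change −0.06 with an SE of 0.05, edgeR adjusted p = 0.633).

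The main Hsp70 genes of the cytosolic and ER branches were set against each other. Their ratio describes these genes and not the branches. Hspa8 had a log2 fold change of 0.10, above the median of 0.01 of the 11 cytosolic genes. The median was 0.04 for the 15 ER chaperones and 0.05 for all 27 ER genes, given as a description. The ratio of Hspa8 to Hspa5 levels was 5.08 to 5.48 in cKO, with a median of 5.36, and 4.68 to 5.501 in WT, with a median of 5.20. The log2 ratio was 0.04 higher in cKO, and a two-sided exact permutation test over all assignments of the libraries to groups of 6 gave p = 0.403, where the smallest p it allows is 0.00216. Hspa8 passed on its own level, but its change relative to that of Hspa5 was within the spread of the libraries, and WT replicate 1 had the lowest ratio.

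**Figure D3:**
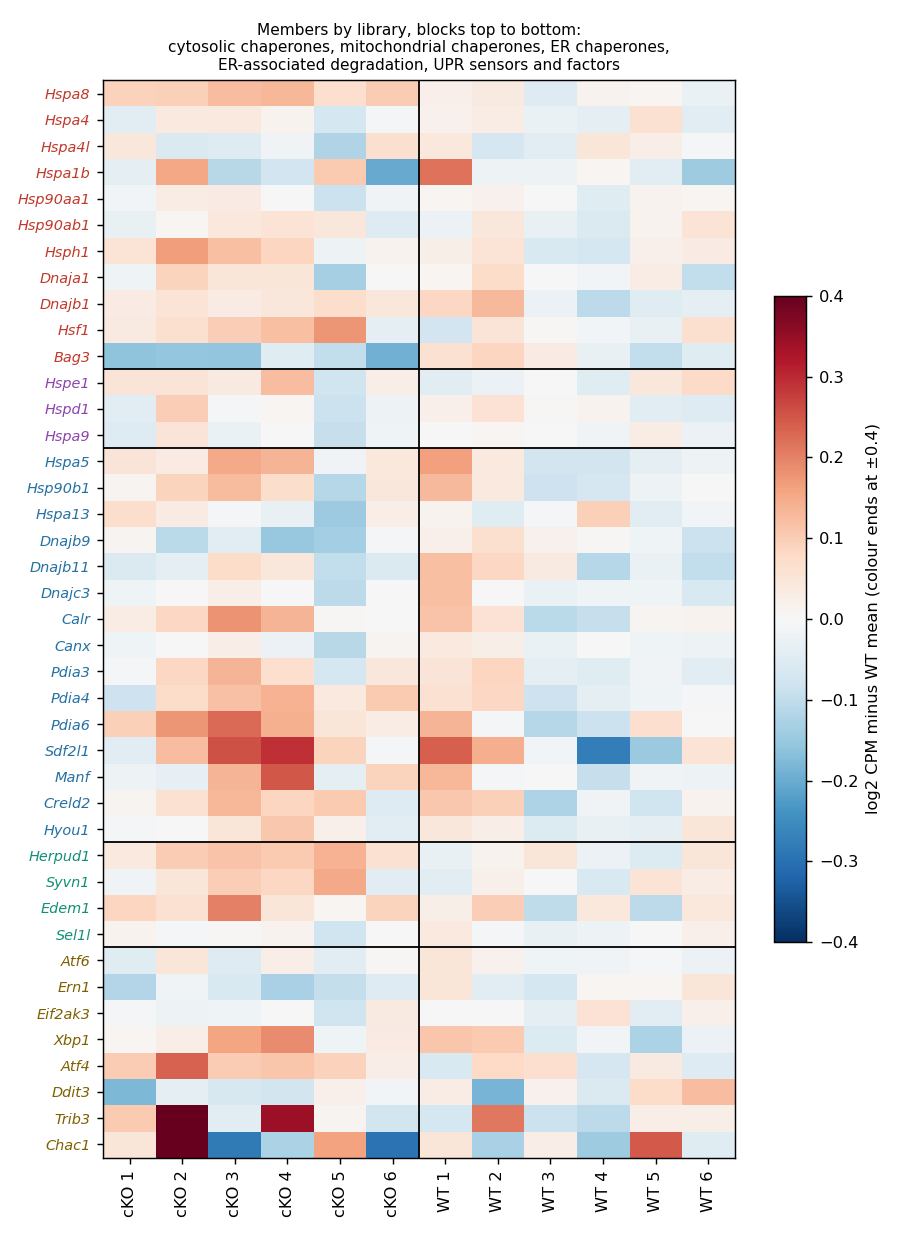
Log2 CPM of each member in each library minus its WT mean, cKO libraries on the left and WT libraries on the right of the vertical line, with horizontal lines between branches. Red is higher and blue lower, and the colour ends at 0.4 in either direction. Many ER chaperone rows are red in cKO replicates 3 and 4 and in WT replicate 1, and the dark cells of Trib3 and Chac1 fall in cKO replicate 2.

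Beyond genotype, many of the ER chaperones correlated with Hspa5 from library to library by Pearson's r. With each genotype centred on its own mean, log2 levels were correlated with Hspa5 for 40 members and with Hspa8 for 39, 79 pairs in all, over 12 libraries (permutation within genotype, 100000 resamples, two-sided, Benjamini-Hochberg over the 79). Of the 40 pairs with Hspa5, 10 passed and all were positive: 8 ER chaperones, Sel1l and Xbp1. The closest was Calr (Pearson r = 0.89, permutation p = 0.00012, adjusted p = 0.00948; Spearman rho = 0.85, permutation p = 0.00113), with r of 0.90 among cKO libraries and 0.90 among WT libraries. Hsp90b1 followed (r = 0.87, permutation p = 0.0003, adjusted p = 0.0118; rho = 0.83, permutation p = 0.00253). Xbp1 had r = 0.84 (permutation p = 0.00182, adjusted p = 0.0319; rho = 0.71, permutation p = 0.0163). Dnajb11 had r = 0.81 (permutation p = 0.00189, adjusted p = 0.0319; rho = 0.73, permutation p = 0.0141), and Manf r = 0.79 (permutation p = 0.00202, adjusted p = 0.0319; rho = 0.73, permutation p = 0.00968).

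Without the libraries farthest from the Hspa5 median, cKO replicate 3 and WT replicate 1, these 5 genes had r of 0.85, 0.75, 0.82, 0.67 and 0.73 in the same order, and 0 of the 79 pairs passed, while 9 Hspa5 pairs had an unadjusted p under 0.05. By Spearman's rho over all libraries 0 passed as well, with a lowest adjusted p of 0.0700 and 15 Hspa5 pairs under an unadjusted 0.05. Among the other called genes r was then 0.74 for Pdia3, 0.68 for Sdf2l1, 0.67 for Sel1l, 0.51 for Dnajc3 and 0.50 for Pdia6, where it had been 0.74, 0.79, 0.71, 0.83 and 0.77 over all libraries. Fewer libraries also weaken the test, and Pdia3 lost its call with r at 0.74 both times. For every other called gene r was lower without those libraries. How far the calls rest on them, apart from the smaller number of libraries, was not tested. Among the called genes, r fell most for Dnajc3 and Pdia6.

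**Figure D4:**
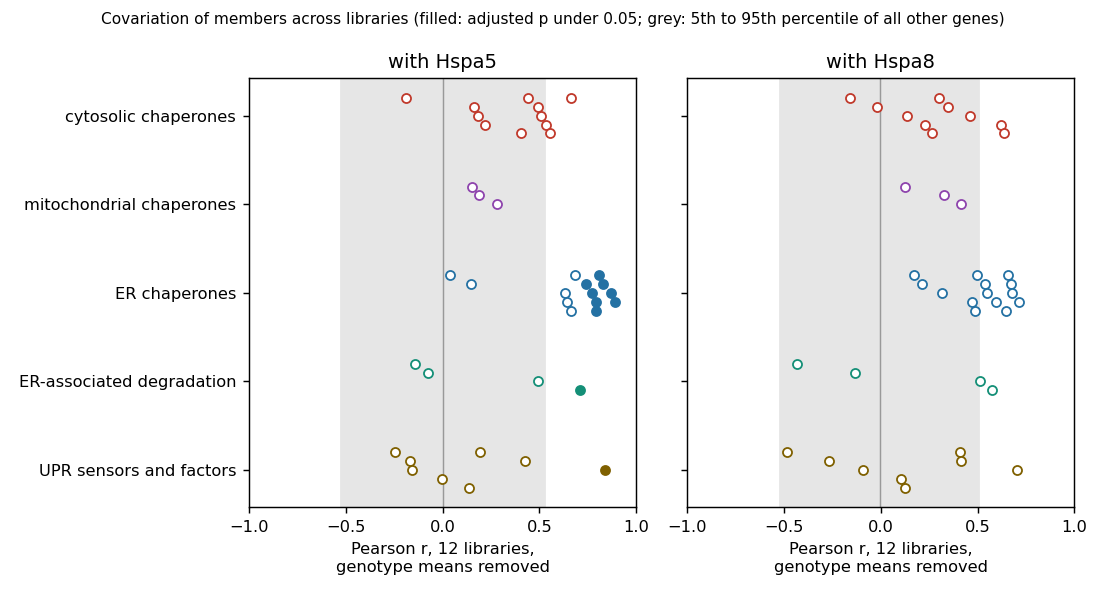
Pearson r of each member with Hspa5 (left) and Hspa8 (right) over 12 libraries after each genotype's mean was removed, one row per branch. Filled points passed at an adjusted p under 0.05, and the grey band spans the 5th to 95th percentile of all other genes. Of the ER chaperones 12 of 14 lie right of the band with Hspa5, and 8 of them are filled.

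The branches differed in how closely they followed Hspa5, given here as a description. The median r was 0.75 for the 14 other ER chaperones, with a range of 0.04 to 0.89. It was 0.44 for cytosolic chaperones, 0.19 for mitochondrial chaperones, 0.21 for degradation genes and 0.07 for UPR sensors and factors. Over all 15466 other genes the median was 0.002, with 90% between −0.52 and 0.53, and 0.957% reached the 0.71 of the lowest called pair. The 7 other genes with an ERSE in their promoter window had a median r of 0.77, from −0.08 for Syvn1 to 0.89, and 4 of the 7 were called. The 24 members with a promoter but no ERSE, most of them not ER chaperones, had a median of 0.34, and 5 were called. Within the ER chaperones, the 6 with an ERSE had a median r of 0.80 and the 5 with a promoter but no ERSE one of 0.74, with 4 and 3 called. With Hspa8 0 of 39 pairs passed and 8 had an unadjusted p under 0.05. Its 5 pairs with the smallest p were Pdia3 (r = 0.71, permutation p = 0.0107, adjusted p = 0.0703), Canx, Pdia4, Xbp1 and Hsp90b1, with r between 0.65 and 0.71. The ER chaperones followed Hspa8 more closely than its own branch did, with a median r of 0.55 for 14 ER chaperones and 0.28 for 10 cytosolic genes. Levels in a library share its depth, dissection and RNA preparation, whose part in these correlations was not tested.

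Targets of ATF4 stood apart in a single library, cKO replicate 2. Chac1, which degrades glutathione, had 6.08 CPM there and 2.49 to 3.62 CPM in the other 11 libraries. Trib3, a pseudokinase that restrains AKT and ATF4, had 2.31 CPM there and 1.15 to 1.57 CPM elsewhere. Atf4 itself was highest in the same library, at 172 CPM against 139 to 158 CPM, while Ddit3 was not, at 14.8 CPM against 13.4 to 16.6 CPM. These genes were singled out after their values were seen. In a list of 29 further genes of the integrated stress response, the programme that PERK shares with other eIF2α kinases, 14, or 48.3%, were highest in cKO replicate 2. Of all genes tested 10.1% were highest there, and the largest share for any library was 15.4%.

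Genes of amino acid supply were among those 14, beside others. Stc2, a secreted stanniocalcin, had 2.34 CPM there and 0.409 to 0.797 CPM in the others, and Sesn2, a leucine sensor, 19.8 CPM against 9.26 to 13.6 CPM. Asns, asparagine synthetase, had 94.9 CPM against 63.6 to 73.3 CPM. The mitochondrial folate enzyme gene Mthfd2 had 16.1 CPM against 9.35 to 11.5 CPM. The serine synthesis gene Psat1, the glycyl-tRNA synthetase gene Gars and the arginine transporter gene Slc7a1 were 1.23, 1.2001 and 1.27 times the median of the other libraries. The same library had the highest sum of microglia markers, 256 CPM, against 202 to 235 CPM in the other 11, and the highest level of the interferon-induced kinase gene Eif2ak2, at 14.2 CPM against 8.71 to 12.3 CPM. Their part in the pattern was not tested.

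**Figure D5:**
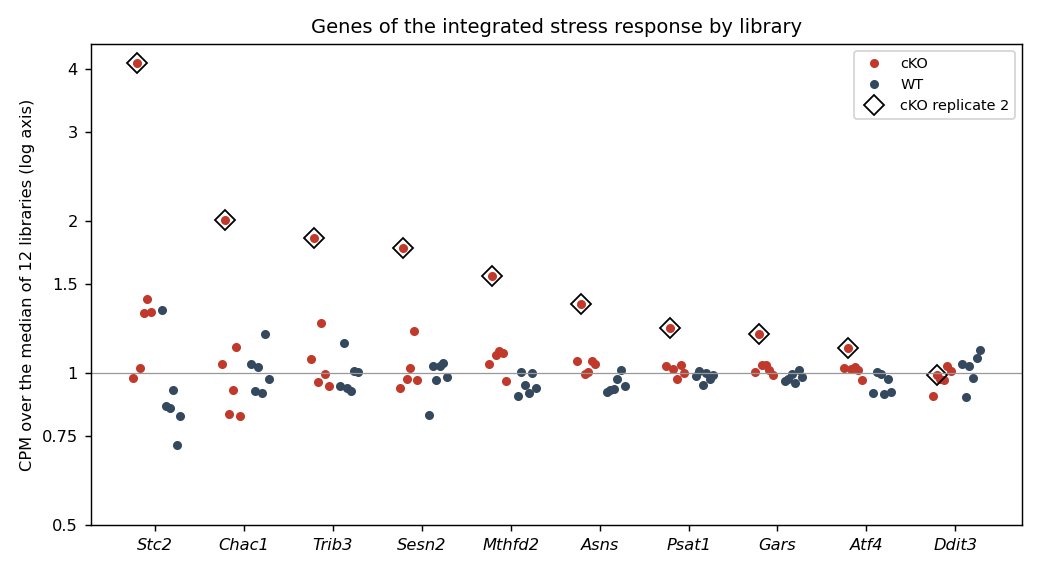
Level of 10 ATF4-linked genes in each library divided by the median of all 12 libraries, on a log axis, with cKO points left of WT points. Diamonds mark cKO replicate 2, which is the highest library for every gene drawn but Ddit3 and stands highest above the rest for Stc2, at 2.34 CPM. The genes drawn are a choice made mostly among those highest there, so they do not give the share of the list. Of the 29 further genes of the integrated stress response 14 were highest in that library, and others such as Ddit4, Phgdh and Aars were not.

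Between the genotypes these genes did not pass the test. Chac1 averaged 3.41 ± 1.36 CPM in cKO and 3.07 ± 0.316 CPM in WT (SD, n = 6 each; log2 fold change 0.14 with an SE of 0.18, edgeR adjusted p = 0.800), and without cKO replicate 2 the value was −0.10 (SE 0.10, adjusted p = 0.758). Trib3 had a log2 fold change of 0.24 (SE 0.16, edgeR adjusted p = 0.549) and 0.07 (SE 0.12) without that library. Asns had 0.19 (SE 0.06, edgeR adjusted p = 0.110) over all libraries and 0.12 (SE 0.03, edgeR adjusted p = 0.0481) without cKO replicate 2, which passed. Of the 29 genes, 0 were called by edgeR or DESeq2 over all libraries, 6 had an unadjusted p under 0.05, and 19 were positive.

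Other genes of the same pathways were read from lists of 150 genes in the table, 149 of them tested. Of these 2 were called, beside the 2.64% of all genes, and the median log2 fold change was 0.004. Hspb8 rose: this small heat shock protein, which forms a complex with BAG3, had 25.5, 26.6 and 26.9 CPM in cKO and 21.3, 22.2 and 26.1 CPM in WT (lowest, median, highest). Of the cKO libraries 5 lay above all WT libraries. It averaged 26.4 ± 0.519 CPM in cKO and 22.9 ± 1.81 CPM in WT (SD, n = 6 each; log2 fold change 0.21 with an SE of 0.04, edgeR adjusted p = 0.00941). With the microglia score as a covariate the change was 0.21 (SE 0.05, adjusted p = 0.0754). Its partner Bag3 had a value of the opposite sign, as given above. Sgtb, a co-chaperone of the small glutamine-rich TPR family, fell, with 52.4, 55.3 and 58.2 CPM in cKO and 57.5, 59.9 and 61.2 CPM in WT (log2 fold change −0.11 with an SE of 0.03, edgeR adjusted p = 0.0492). With 1 library left out at a time, Sgtb was called in 2 of 12 fits (cKO replicate 1 or WT replicate 1 absent) against adjusted p-values of 0.0503 to 0.114 in the other fits.

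Both called genes were among the 36 cytosolic co-chaperones, of which 21 were positive and 15 negative. The 8 subunits of the chaperonin TRiC, which folds actin and tubulin, all had positive values, with a median of 0.03; 0 passed and 3 had an unadjusted p under 0.05, led by Cct7 (log2 fold change 0.07 with an SE of 0.02, edgeR adjusted p = 0.157) and Cct3 (0.06, SE 0.03, edgeR adjusted p = 0.230). Of 11 mitochondrial chaperones and proteases 0 passed and 0 had an unadjusted p under 0.05, with the protease gene Lonp1 at 0.04 (SE 0.03) and the iron-sulfur co-chaperone gene Hscb at 0.11 (SE 0.07). Of 28 further ER folding genes 0 passed, 1 had an unadjusted p under 0.05 and 18 were negative, among them the oxidase gene Ero1l at −0.07 (SE 0.03, edgeR adjusted p = 0.313) and Dnajc1 at −0.06 (SE 0.03). Of 23 further degradation genes 0 passed and 3 had an unadjusted p under 0.05, with the ubiquitin-conjugating enzyme gene Ube2g2 at 0.08 (SE 0.03, edgeR adjusted p = 0.252) and Aup1 at 0.07 (SE 0.03, edgeR adjusted p = 0.291). Of 14 tested UPR regulators 0 passed and 0 had an unadjusted p under 0.05, with Traf2, an adaptor of IRE1, at −0.08 (SE 0.04) and Bak1 at 0.09 (SE 0.06). DESeq2 called 0 genes in the 5 lists after the co-chaperones, among which it called Hspb8, Ahsa2 and Sgtb.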

How the data were processed

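Counts were analysed from mRNA libraries of whole cerebella, 6 cKO and 6 WT, grouped by the genotype label. Per the labels' protocols, RNA came from fresh tissue, libraries were stranded, and all were multiplexed over the same lanes. Raw read counts for each gene symbol were deposited by the authors. The submitters' processing notes name STAR, DESeq2 and mm10 without versions; the counting tool and its strand setting are not given there. The authors also deposited a DESeq2 table with a mean signal of normalised counts, a log2 fold change with its standard error, a test score, a p-value and an adjusted p-value, per the file headers. Its sign was read from the 400 genes called both there and here. All 400 had the same sign in both, so that a positive value there means higher in cKO. All count columns matched a sample, and 0 were left over.

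With edgeR 4.0.16 in R 4.3.3, filterByExpr kept 15467 genes, TMM scaled the libraries, and the quasi-likelihood test compared the genotypes (Benjamini-Hochberg adjusted p under 0.05). CPM uses TMM-scaled totals, and correlations used log2 of these values without a prior count. Marker scores used log2 CPM with a prior count of 2. Standard errors came from the test statistic. Alternatives used DESeq2 1.42.0, sva 3.50.0 with 3 surrogate variables, thinning, marker scores and left-out libraries. Positions and exon lengths came from GENCODE M21 (mm10), promoters from RefSeq. On simulated counts for cKO against WT (15467 genes, with 200 altered at each fold), the test found 30.0% of those altered 1.1-fold, 77.0% at 1.2-fold and 95.5% at 1.5-fold, and 0.0524% of unchanged genes were called.

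Members and lists were chosen with earlier results of these data known. Values in full are given for called members, the 2 smallest p of each branch and 13 anchor genes (some fall under both rules), and Chac1, Trib3 and Stc2 were added after their values were seen; of each further list the called genes and the 2 smallest p are named.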

Additional observations from a re-analysis of the deposited data

Results flagged for a closer look

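In 12 of 112 groups of 6 values examined, 1 library lay apart from its group, with a gap to the nearest value above Dixon's 95% limit. Chance gives about 1 in 20 such groups; without Stc2, which was added after its values were seen, 10 of 110 groups were so marked. Of the 12, 5 were cKO replicate 2 in the integrated stress response: Trib3 at 2.31 CPM (next library 1.57), Chac1 at 6.08 CPM (next 3.41), Asns at 94.9 CPM (next 73.3), Mthfd2 at 16.1 CPM (next 11.5) and Stc2 at 2.34 CPM (next 0.797). A further 3 were cKO replicate 5, which was the lowest cKO library for Dnajc3 at 97.1 CPM (next 103), Canx at 338 CPM (next 359) and Sel1l at 213 CPM (next 223). That library was the lowest of all 12 for 14 of the 41 members, or 34.1%, against 13.8% of all genes tested. WT replicate 1 was the highest WT library for Dnajc3 at 113 CPM (next 104) and for Stc2 at 0.758 CPM (next 0.526). WT replicate 4 was the lowest WT library for Hsp90aa1 at 833 CPM (next 862), and cKO replicate 1 the lowest cKO library for Hspb8 at 25.5 CPM (next 26.4).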

How the results depend on the processing

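No paired analysis was possible because the replicate numbers only name the libraries of a group in order of deposit. The count of called members, 1 over all libraries, was 1 to 2 with each library left out, 2 with counts thinned to the smallest library (Hspa8 and Herpud1), 4 with DESeq2 (Hspa8, Bag3, Herpud1 and Atf4) and 0 with the microglia score (4 with an unadjusted p under 0.05). It was also 0 in the 2 fits on 8 libraries chosen after the data were seen, without high neighbouring tissue (3 with an unadjusted p under 0.05) or choroid plexus scores (5). Hspa8 kept its direction in all fits run (left-out libraries 0.09 to 0.11, edgeR adjusted p = 0.00429 to 0.0270; surrogate variables adjusted p = 0.0484). Genes called in all, 409, numbered 272 to 459 with a library left out, 162 with the microglia score, 189 with surrogate variables, and 157 and 135 in the 2 smaller fits. Called pathway genes, 2, numbered 1 to 2 with a library left out, 1 with RLE factors, without a count filter, with the choroid plexus score and in both smaller fits, 0 with the microglia score (4 with an unadjusted p under 0.05) or surrogate variables (8), and 3 with DESeq2. The Hspa5 correlations called, 10, fell to 0 without the 2 farthest libraries; the ratio of Hspa8 to Hspa5 differed by 0.006 to 0.053 on the log2 scale with a library left out (exact permutation p = 0.167 to 0.810). Log2 fold changes near 0 changed sign with libraries left out for Hsp90aa1 (−0.016 to 0.0075) and Hspd1 (−0.029 to 0.0088). So did the positive values of Chac1 and Trib3, which are among the largest of the family and not called, in some fits (Chac1 −0.10 to 0.22 with libraries left out). Hsp90b1 was −0.00026 with the microglia score, −0.0026 and −0.016 in the smaller fits. Chac1 was −0.24 with the microglia score, −0.20 with surrogate variables and −0.033 without high neighbouring tissue. Trib3 was −0.067 with the microglia score. Hspd1 was 0.0086 thinned, 0.0063 with neighbouring tissue and 0.0042 with surrogate variables. Atf6 was 0.0090 with neighbouring tissue and 0.016 with surrogate variables, where Eif2ak3 was 0.013 and Hsp90ab1 −0.023. Ddit3 was 0.0042 thinned. The causes were not tested. At these depths folds near 1.1 were mostly missed in simulated counts. The altered genes there were drawn at random and not at the members' levels. The median standard error was 0.034 for the members and 0.043 for all genes tested, so the share missed among members was not measured.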
